A study of Mus musculus with 11 samples.

Results

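The let-7 family of microRNAs (miRNAs) was followed through 11 small RNA libraries. They came from mouse embryonic stem cells that had no DGCR8, the E518K form of DGCR8 or wild-type DGCR8. The rows were chosen by name: mmu-let-7a-5p, mmu-let-7b-5p, mmu-let-7c-5p, mmu-let-7d-5p, mmu-let-7d-3p, mmu-let-7e-5p, mmu-let-7f-5p, mmu-let-7g-5p, mmu-let-7i-5p and mmu-miR-98-5p (mmu, for mouse, is left out from here on), which are 10 of the 1966 mature miRNAs in the count table. All 10 passed the filter on low counts, as did 730 miRNAs in all, and none of their 110 values was 0.

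Induced E518K libraries came from clones 8, 13 and 15 of cells labelled DGCR8 E518K/E518K that received the vector pSB ET iE-FlagDGCR8-E518K along with the plasmid pCMV(CAT)-SB100X, and were given 300 ng/mL doxycycline for 48 h. KO libraries were 3 samples of non-transfected DGCR8 -/- cells, all from clone 261, given the same doxycycline. Induced wild-type libraries came from clones 10, 12 and 16 of cells labelled DGCR8 wt/wt that received the vector pSB ET iE-FlagDGCR8-wt along with the plasmid pCMV(CAT)-SB100X, and were given doxycycline. E518K clone 8 and wild-type clone 10 were also sequenced once each without doxycycline. All 11 libraries share the strain label NBA1-19349 and feeder-free culture with 2i and LIF. DGCR8 is thus made from an inducible transposon vector in the transfected lines, and nothing in the labels says that the 3 KO samples were separate cultures, so their spread may be technical.

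DGCR8 is the RNA-binding partner of Drosha in the microprocessor, the nuclear enzyme that cuts miRNA hairpins out of their primary transcripts, and the E518K mutation of DGCR8 is found in Wilms tumours. The let-7 miRNAs repress growth and pluripotency genes such as Lin28a, Hmga2 and Myc, are low in embryonic stem cells and rise as cells differentiate. In stem cells LIN28 binds the terminal loop of let-7 precursors, where the letters GGAG are part of its site, and keeps them from being cut further.

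Mature sequences of the 10 rows, from RefSeq on GRCm38.p6, are given 5′ to 3′ because the members differ by so few letters, with the seed (bases 2 to 8, which pair with targets) in capitals.
let-7a-5p: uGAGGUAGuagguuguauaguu
let-7f-5p: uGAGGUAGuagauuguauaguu
let-7c-5p: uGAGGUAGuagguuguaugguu
let-7b-5p: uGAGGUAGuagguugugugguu
let-7e-5p: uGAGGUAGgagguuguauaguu
let-7d-5p: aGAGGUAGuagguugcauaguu
let-7g-5p: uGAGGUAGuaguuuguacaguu
let-7i-5p: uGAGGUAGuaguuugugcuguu
miR-98-5p: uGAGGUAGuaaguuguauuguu
let-7d-3p: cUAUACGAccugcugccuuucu

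All 9 of the 5p members have the seed GAGGUAG and so share targets, and let-7d-3p, from the other arm of the let-7d hairpin, has UAUACGA. Counted from 1 at the 5′ end of let-7a-5p, let-7f-5p differs by G12A, let-7c-5p by A19G and let-7e-5p by U9G. The changes are A17G and A19G in let-7b-5p, U1A and U16C in let-7d-5p, G12U and U18C in let-7g-5p, G11A and A19U in miR-98-5p, and G12U, A17G, U18C and A19U in let-7i-5p. Of the pairs of 5p members, 4 differ by 1 base and 10 by 2 bases. The sources used here do not say how reads with a mismatch were counted, so reads of these close neighbours could have been split between them.

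The family is spread over the genome of GRCm38.p6. Mirlet7a-1 (chr13:48538179-48538272), Mirlet7f-1 (chr13:48537829-48537917) and Mirlet7d (chr13:48536012-48536114) lie together on the minus strand in exons of the lincRNA gene 6720427I07Rik. Mirlet7c-2 (chr15:85706603-85706697) and Mirlet7b (chr15:85707319-85707403) lie on the plus strand in an exon of the non-coding transcript Lncppara. Mirlet7f-2 (chrX:151912346-151912428) and Mir98 (chrX:151913214-151913321) lie on the plus strand in an intron of Huwe1. Mirlet7g (chr9:106178840-106178927) lies in an intron of Wdr82, Mirlet7e (chr17:17830352-17830444) in an intron of Spaca6 and Mirlet7c-1 (chr16:77599657-77599750) in an intron of Mir99ahg, all on the plus strand. Mirlet7i (chr10:122985640-122985724, minus strand) overlaps an exon of the pseudogene D630033A02Rik, and Mirlet7a-2 (chr9:41536716-41536811, plus strand) an intron of 3110039I08Rik.

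Between the 2 arms, the letters GGAG, searched on the RNA strand, were found in 9 of the 12 let-7 hairpins and in 52 of 644 mouse hairpins with both arms in the table (8.07%). Those without them were Mirlet7c-2, Mirlet7b and Mir98. The RNA between the arms is shown for 4 hairpins, because let-7c-5p comes from one hairpin that holds the letters and from one that does not, with GGAG in capitals.
Mirlet7a-1: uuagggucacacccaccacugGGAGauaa
Mirlet7e: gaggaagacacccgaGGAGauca
Mirlet7c-1: uagaguuacacccugGGAGuuaa
Mirlet7c-2: uugggcucugccccgcucugcgguaa

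Levels are given as CPM, a library's miRNA counts brought to a common total, scaled by edgeR's TMM factors (scaled CPM), which compare libraries within the miRNA pool and not per cell. Library totals were 1050564 to 1797240 counts in the induced E518K clones, 166676 to 208846 in KO and 3394216 to 6128734 in the induced wild-type clones, with 264507 in untreated E518K and 1421247 in untreated wild type. The 9 stem cell markers of the miR-290 and miR-302 clusters, made through DGCR8, held 2.82% to 4.08% of counts in induced E518K, 0.0198% to 0.0461% in KO, with miR-302a-3p, miR-302b-3p and miR-302d-3p at 0, and 5.20% to 7.88% in induced wild type. KO was thus measured in a much smaller pool, where 12 miRNAs known to be made without DGCR8 held 12.3% to 17.2% of counts, against 0.902% to 1.63% in induced E518K and 0.104% to 0.180% in induced wild type. Fewer cells and less RNA per cell cannot be told apart in such bulk libraries.

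The family was a larger part of the miRNA pool in the mutant. The 10 members together made up 7.90%, 7.50% and 5.74% of counts in induced E518K clones 8, 13 and 15 (mean 7.05% ± 1.15, SD, n = 3). In KO they made up 1.89% ± 0.294 (n = 3), and in induced wild-type clones 10, 12 and 16 they made up 0.474%, 1.45% and 0.777% (mean 0.902% ± 0.502, n = 3). The 3 E518K clones lay above all KO libraries, and those lay above all wild-type clones. Without doxycycline the share was 2.52% in E518K clone 8 (exact binomial interval at 95%, counting error only, 2.43% to 2.6%) and 0.830% in wild-type clone 10 (0.809% to 0.851%).

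**Figure D1:**
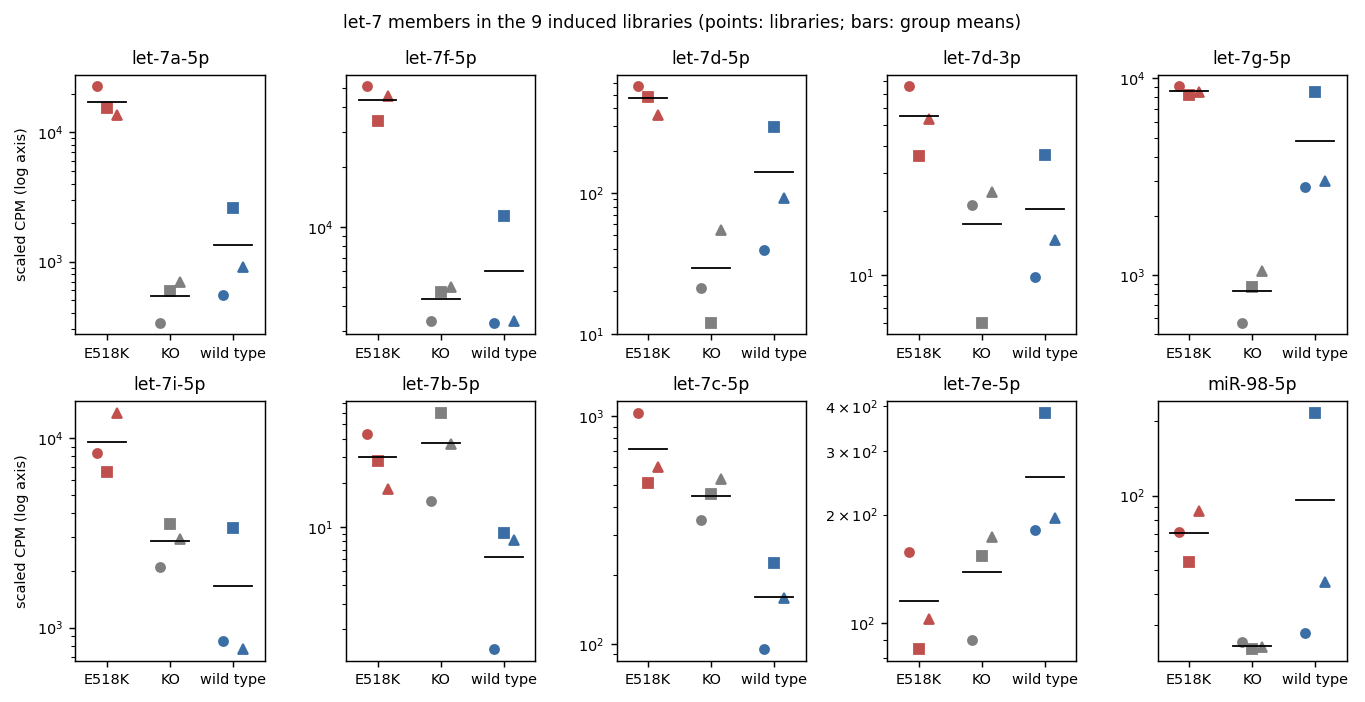
Scaled CPM (log axis) of each let-7 member in the induced E518K, KO and induced wild-type libraries, 1 point per library (circle, square and triangle: clones 8, 13 and 15, KO samples 1, 2 and 3, clones 10, 12 and 16), with bars at the group means. Under TMM scaling the E518K points of let-7a-5p, let-7f-5p and let-7i-5p lie above both other groups. On the DGCR8-independent list wild-type clone 12 lies inside the E518K range of let-7a-5p and above that of let-7f-5p and let-7i-5p, and let-7i-5p is lower in E518K than in wild type. The wild-type square, clone 12, is the highest wild-type point in every panel under TMM scaling (clone 16 is higher for let-7b-5p with total counts, DESeq2 size factors or the authors' scaling, and for let-7c-5p with total counts or the authors' scaling).

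let-7a-5p, whose letters are those of the let-7 first found in the worm, differed most between mutant and wild type. It had 22771, 15578 and 13554 scaled CPM in E518K clones 8, 13 and 15, against 549, 2603 and 902 scaled CPM in wild-type clones 10, 12 and 16. With TMM scaling the groups did not overlap, and the lowest E518K clone lay above the highest wild-type clone, clone 12. let-7a-5p rose by 3.68 ± 0.43 on the log2 scale (SE, edgeR's quasi-likelihood test, Benjamini-Hochberg adjusted p = 1.3e-15). When libraries were scaled on the 12 miRNAs made without DGCR8 the change was 0.88, and clone 12 lay inside the E518K range. Leaving out wild-type clone 12 gave 4.35. Of the 730 tested miRNAs, 94.0% changed by a lower value.

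let-7f-5p, which differs from let-7a-5p by 1 base and is the most abundant member, had 50704, 33903 and 45119 scaled CPM in the E518K clones, against 3315, 11353 and 3366 scaled CPM in the wild-type clones. Again no wild-type clone reached the E518K range with TMM scaling, though clone 12 lay above it when scaled on the 12 miRNAs made without DGCR8. The log2 change was 2.85 ± 0.42 (edgeR adjusted p = 2.4e-10), or 3.59 without wild-type clone 12, and was 0.06 and not called (adjusted p = 0.91) when libraries were scaled on the 12 DGCR8-independent miRNAs. Ranked by group mean, let-7f-5p was the miRNA in place 7 of the E518K pool, against place 24 of the wild-type pool.

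let-7i-5p had 8350, 6617 and 13578 scaled CPM in the E518K clones, against 853, 3347 and 773 scaled CPM in the wild-type clones. Here clone 15 was the highest E518K clone, whereas for let-7a-5p it was the lowest. With TMM scaling the groups did not overlap. let-7i-5p rose by 2.52 ± 0.40 on the log2 scale (edgeR adjusted p = 7.3e-09), with -0.25 when libraries were scaled on the 12 DGCR8-independent miRNAs. Leaving out wild-type clone 12 gave 3.52.

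Among the members of lower level, let-7c-5p had 1036, 509 and 598 scaled CPM in the E518K clones, against 95.2, 228 and 159 scaled CPM in the wild-type clones, and rose by 2.15 ± 0.40 (edgeR adjusted p = 4.5e-07, with -0.64 on the DGCR8-independent list). let-7b-5p, whose hairpin lies beside that of let-7c-2, had 43.2, 28.3 and 18.1 scaled CPM in the E518K clones, against 1.47, 9.10 and 8.15 scaled CPM in the wild-type clones, and rose by 2.19 ± 0.53 (edgeR adjusted p = 0.00012, with -0.59 on that list). Neither overlapped between the groups. The let-7b-5p value of wild-type clone 10 rests on 3 counts, and without wild-type clone 16 the log2 changes were 2.83 for let-7c-5p and 3.04 for let-7b-5p.

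Both arms of let-7d were called higher in the mutant, though called lower on the DGCR8-independent list (-1.07 for the 5p and -1.35 for the 3p arm). let-7d-5p had 572, 481 and 360 scaled CPM in the E518K clones, against 39.2, 293 and 91.7 scaled CPM in the wild-type clones, with no overlap, and rose by 1.73 ± 0.43 (edgeR adjusted p = 0.00022), or by 2.58 without wild-type clone 12. let-7d-3p had 75.9, 35.7 and 53.4 scaled CPM in the E518K clones, against 9.81, 36.4 and 14.6 scaled CPM in the wild-type clones, where clone 12 reached into the E518K range. It rose by 1.43 ± 0.49 (edgeR adjusted p = 0.0074), a call that did not hold with E518K clone 8 (adjusted p = 0.089) or wild-type clone 10 (adjusted p = 0.16) left out, nor with DESeq2 (adjusted p = 0.066).

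let-7g-5p, the most abundant member in wild type after let-7f-5p, had 9114, 8211 and 8545 scaled CPM in the E518K clones, against 2817, 8580 and 2991 scaled CPM in the wild-type clones. Wild-type clone 12 lay inside the E518K range and the other two lay below it. The log2 change of 0.85 ± 0.38 was called (edgeR adjusted p = 0.042, with -1.94 on the DGCR8-independent list), or 1.45 without wild-type clone 12, but not with E518K clone 8 (1.00, adjusted p = 0.074), E518K clone 15 (0.95, adjusted p = 0.059) or wild-type clone 10 (0.58, adjusted p = 0.28) left out, nor with DESeq2 (adjusted p = 0.070).

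The other two members did not rise. let-7e-5p had 157, 84.8 and 103 scaled CPM in the E518K clones, against 181, 384 and 196 scaled CPM in the wild-type clones, where every clone lay above every E518K clone. As a percent of counts the groups overlapped, with 0.0134% in E518K clone 8 and 0.0109% in wild-type clone 10. let-7e-5p fell by 1.14 ± 0.41 on the log2 scale (edgeR adjusted p = 0.010), but the call was lost without wild-type clone 12 (fell by 0.86, adjusted p = 0.18), wild-type clone 16 (fell by 0.61, adjusted p = 0.30) or any 1 of the E518K clones 8, 13 and 15 (adjusted p = 0.064, 0.080 and 0.062), and when scaled on total counts (adjusted p = 0.20). miR-98-5p had 71.3, 54.0 and 86.6 scaled CPM in the E518K clones, against 28.0, 216 and 44.8 scaled CPM in the wild-type clones, so that all E518K values lay inside the wild-type range. Its log2 change of -0.45 ± 0.46 was not called (edgeR adjusted p = 0.39) and was 0.80 without wild-type clone 12.

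In all, 8 of 10 members were called higher and 1 lower in induced E518K against induced wild-type clones (1 higher and 5 lower on the DGCR8-independent list), where 63.6% of the 730 tested miRNAs were called, 28.2% higher and 35.3% lower. The groups did not overlap for 7 members, against 64.5% of all tested miRNAs. Such counts of members that do not overlap are from TMM scaling alone, here and below. The median log2 change was 1.94 over the members and -0.14 over all tested miRNAs. Scaling moved that median to 0.21 with total counts, -0.29 with DESeq2 size factors, -0.19 with the authors' scaling and -2.90 when libraries were scaled on the 12 miRNAs made without DGCR8. Under each of these 5 scalings 8 members lay above the median of all tested miRNAs, which a change of scaling could hardly alter. Rescaling moves the log2 changes of all miRNAs in a comparison by nearly the same amount. let-7a-5p (0.88) and let-7f-5p (0.06, not called) had a positive change on the DGCR8-independent list, while let-7b-5p, let-7c-5p, both let-7d arms, let-7g-5p and let-7i-5p turned negative on it, from -0.25 to -1.94. let-7e-5p was negative under all 5 scalings, and miR-98-5p was positive with total counts (0.07).

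**Figure D2:**
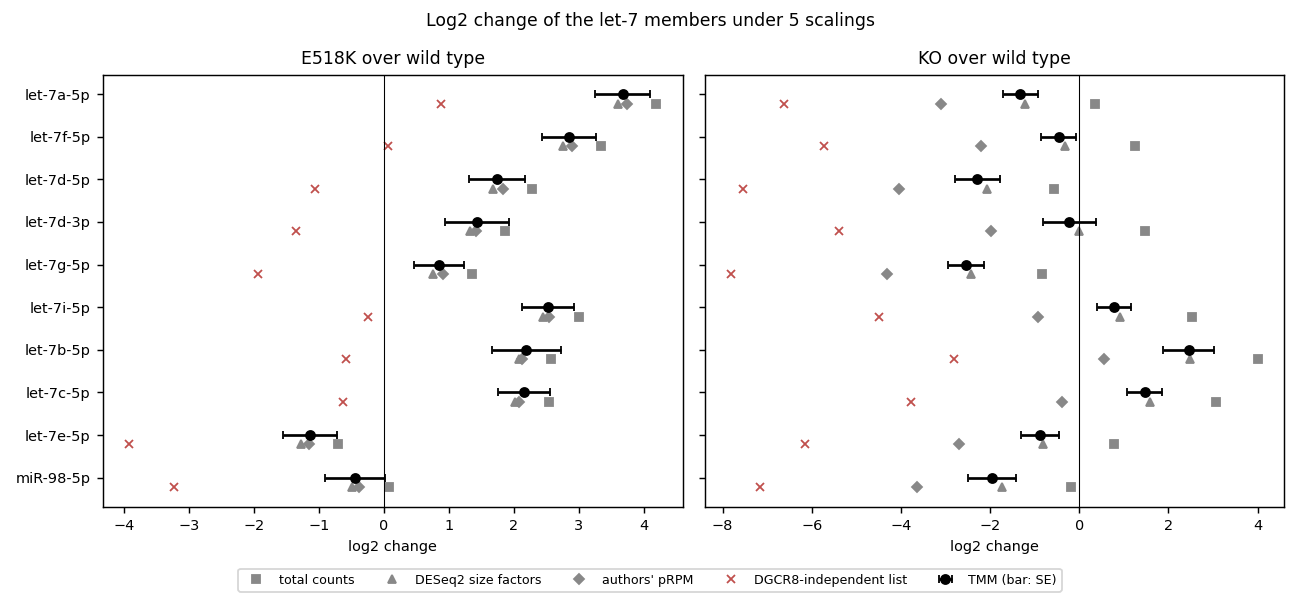
Log2 change of each member in induced E518K over induced wild type (left) and in KO over induced wild type (right), with TMM scaling in black (bars: SE of the edgeR fit) and with 4 other scalings below each point. Scaling on the DGCR8-independent list (red crosses) gives the lowest value of every member in both comparisons, and turns 6 members of the left panel negative.

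Within the family, the make-up of the 9 summed 5p members does not depend on how libraries are scaled, and no test was run on it. let-7g-5p took 9.82%, 12.5% and 10.4% of the 5p members in E518K clones 8, 13 and 15, and 8.30%, 8.35% and 10.0% in the KO libraries, against 35.8%, 31.8% and 35.1% in wild-type clones 10, 12 and 16. Every wild-type library thus had a share of let-7g-5p above that of every E518K and KO library, and this held without doxycycline too, with 7.97% in E518K clone 8 and 35.4% in wild-type clone 10. The 3 wild-type clones, whose let-7g-5p levels ranged over 1.61 log2 units, gave nearly the same share (34.2% ± 2.13, SD, n = 3).

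let-7a-5p took 21.6% ± 4.42 of the 5p members in induced E518K, 5.72% ± 0.843 in KO and 9.06% ± 1.87 in induced wild type. let-7f-5p held the greatest share in every group, with 53.8% ± 1.77 in induced E518K, 47.4% ± 1.76 in KO and 41.2% ± 1.5 in induced wild type. The 3 groups did not overlap for either member.

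let-7i-5p stood out in KO, with 30.5%, 33.6% and 28.1% of the 5p members, against 11.9% ± 4.09 in induced E518K and 10.8% ± 1.67 in induced wild type. let-7c-5p likewise took 4.84% ± 0.399 in KO, against 0.874% ± 0.211 in induced E518K and 1.31% ± 0.520 in induced wild type. let-7e-5p took 0.141% ± 0.0242 in induced E518K, 1.48% ± 0.179 in KO and 2.01% ± 0.509 in induced wild type, so its share in E518K lay below that of both other groups in every library. Untreated E518K clone 8, with 16.1% let-7i-5p, 3.67% let-7c-5p and 1.02% let-7e-5p, lay between the induced E518K clones and the KO libraries for let-7c-5p and let-7e-5p.

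**Figure D3:**
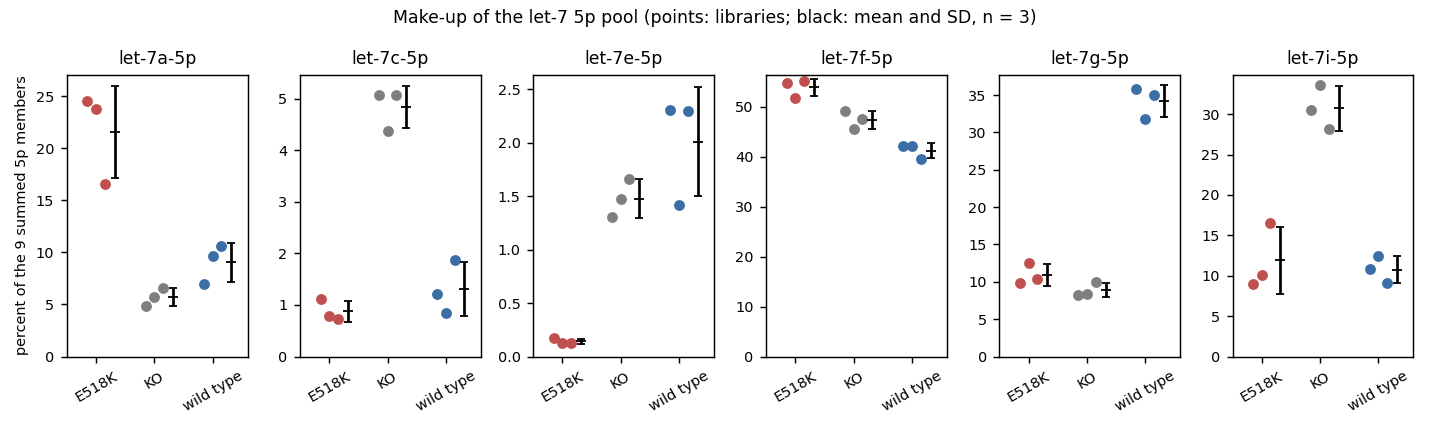
Share (percent) of 6 members in the 9 summed let-7 5p members, 1 point per library of induced E518K, KO and induced wild type, with the mean and SD (n = 3) in black and an axis from 0 in each panel. let-7g-5p lies between 31.8% and 35.8% in the wild-type clones and at 12.5% or below in every E518K and KO library, and let-7i-5p and let-7c-5p are highest in KO.

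In KO, where the microprocessor lacks DGCR8, let-7 counts were few but not absent. let-7f-5p had 1585, 1581 and 1631 counts in the 3 KO libraries, let-7i-5p 984, 1167 and 966 counts, and let-7b-5p 7, 20 and 12 counts. On the scaled CPM, let-7g-5p had 571, 870 and 1049 in KO, against 2817, 8580 and 2991 in wild-type clones 10, 12 and 16. All KO values lay below all wild-type values, and let-7g-5p fell by 2.53 ± 0.40 on the log2 scale (edgeR adjusted p = 1.1e-09), or by 1.27 without wild-type clone 12 and 1.81 without KO sample 2. With total counts the change was -0.84 (adjusted p = 0.043), under the authors' scaling -4.30 and on the DGCR8-independent list -7.81.

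let-7d-5p had 21.3, 12.0 and 54.9 scaled CPM in KO, against 39.2, 293 and 91.7 scaled CPM in wild type, where KO sample 3 lay above wild-type clone 10. It fell by 2.29 ± 0.50 (edgeR adjusted p = 1.6e-05; not called with total counts, -0.58), by 1.19 without KO sample 2, and by 0.72 without wild-type clone 12, where it was no longer called (adjusted p = 0.26). miR-98-5p had 25.6, 24.0 and 24.4 scaled CPM in KO, from 8 to 12 counts, against 28.0, 216 and 44.8 scaled CPM in wild type, and fell by 1.96 ± 0.54 (edgeR adjusted p = 0.00048). The groups did not overlap, but the call was lost without wild-type clone 12 (fell by 0.03, adjusted p = 0.97), KO sample 2 (fell by 1.09, adjusted p = 0.12) or KO sample 3 (fell by 1.18, adjusted p = 0.089), or with total counts (fell by 0.19), and the change was -2.61 without KO sample 1.

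let-7a-5p had 337, 594 and 689 scaled CPM in KO, inside and below the wild-type range of 549 to 2603 scaled CPM. It fell by 1.33 ± 0.39 (edgeR adjusted p = 0.0011), a change that became 0.36 with total counts and 0.03 without wild-type clone 12, and was not called without KO sample 2 (fell by 0.67, adjusted p = 0.18) or KO sample 3 (fell by 0.88, adjusted p = 0.079). let-7e-5p had 89.5, 153 and 174 scaled CPM in KO, just below the 181 to 384 of wild type, and fell by 0.88 ± 0.42 (edgeR adjusted p = 0.042), with 0.77 under total counts. That call held without KO sample 1 alone, and was lost on leaving out KO samples 2 (fell by 0.22) or 3 (fell by 0.41) or wild-type clones 10 (fell by 0.48), 12 (0.07) or 16 (fell by 0.95). Log2 changes of let-7f-5p (-0.46 ± 0.39, edgeR adjusted p = 0.26) and let-7d-3p (-0.22 ± 0.59, edgeR adjusted p = 0.72) were not called. Without KO sample 1 let-7f-5p was called (fell by 0.94, adjusted p = 0.042), while with total counts both were called higher (1.26 and 1.47) and under the authors' scaling both lower (-2.21 and -1.98).

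The 3 other members were called higher in KO within the miRNA pool. let-7b-5p had 14.9, 60.0 and 36.6 scaled CPM in KO, against 1.47, 9.10 and 8.15 scaled CPM in wild type, and rose by 2.45 ± 0.58 (edgeR adjusted p = 4.2e-05), although its change was 0.56 and not called under the authors' scaling and -2.81 on the DGCR8-independent list. let-7c-5p had 350, 456 and 531 scaled CPM in KO, against 95.2, 228 and 159 scaled CPM in wild type, and rose by 1.47 ± 0.40 (edgeR adjusted p = 0.00034), with -3.78 on that list and -0.40 under the authors' scaling. Neither overlapped between the groups. Without wild-type clone 12 their changes were 3.13 and 2.29, and without KO sample 2 that of let-7c-5p was 2.17.

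let-7i-5p had 2097, 3502 and 2947 scaled CPM in KO, overlapping the 853, 3347 and 773 scaled CPM of wild type through clone 12. Its change of 0.78 ± 0.38 (edgeR adjusted p = 0.049) was 2.37 without wild-type clone 12, 1.42 without KO sample 2 and 1.46 without KO sample 3, was not called without KO sample 1 (0.33, adjusted p = 0.48) or wild-type clone 16 (0.52, adjusted p = 0.34) or with DESeq2 (adjusted p = 0.075), and was -0.93 under the authors' scaling and -4.49 on the DGCR8-independent list.

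In KO against induced wild type 3 members were called higher and 5 lower (5 and 1 with total counts, 0 and 10 on the DGCR8-independent list), where 88.4% of all tested miRNAs were called, 30% higher and 58.4% lower, and the groups did not overlap for 5 members, against 84.9% of all tested miRNAs. The median log2 change was -0.67 over the members and -3.54 over all tested miRNAs (-2.03 with total counts, -3.49 with DESeq2 size factors, -5.19 with the authors' scaling and -8.23 on the DGCR8-independent list). All 10 members lay above the median of all tested miRNAs under each of these 5 scalings, which again a change of scaling could hardly alter. let-7g-5p, let-7d-5p and miR-98-5p were the members whose change was negative under all 5.

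Mesenchymal, liver and muscle markers had larger shares of the small KO pool than of the wild-type pool, neural markers had smaller ones, and blood markers overlapped. The 5 mesenchymal markers (miR-143-3p, miR-145a-5p, miR-199a-3p, miR-199a-5p and miR-214-3p, all detected) held 1.23% to 1.74% of KO counts, against 0.220% to 0.317% in induced wild type. With TMM scaling 2 of the 5 were called higher and 1 lower, where 30% of all tested miRNAs were called higher and 58.4% lower. In the other lists 1 of 1 liver and 2 of 3 muscle markers were called higher, and 4 of 4 neural and 2 of 2 tested blood markers lower. The liver miRNA miR-122-5p held 0.0108% to 0.0177% in KO, against 6.53e-05% to 0.000303% in induced wild type. The 3 muscle markers held 0.01% to 0.0324% of KO counts, against 0.000825% to 0.00157% in induced wild type, the 4 neural markers 0.0129% to 0.0180%, against 0.215% to 0.451%, with miR-124-3p at 0 in KO, and the 5 blood markers 0.00591% to 0.0186%, against 0.00400% to 0.0248%, with miR-223-3p, miR-451a and miR-144-3p at 0 in KO. Their part in the let-7 values of KO was not tested.

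Set against KO, with the same caution on the pool, induced E518K had 7 members called higher and 0 lower (4 and 2 with total counts), where 68.1% of all tested miRNAs were called, 41.9% higher and 26.2% lower. The groups did not overlap for 7 members, against 67.5% of all tested miRNAs, and the median change was 1.70 over the members and 1.35 over all tested miRNAs. let-7a-5p had the greatest change among the members, 5.00 ± 0.46 (edgeR adjusted p = 2.3e-24), followed by let-7d-5p with 4.02 ± 0.52 (edgeR adjusted p = 2.9e-12), let-7g-5p with 3.38 ± 0.42 (edgeR adjusted p = 9.4e-15) and let-7f-5p with 3.31 ± 0.43 (edgeR adjusted p = 2.4e-13). These 4 calls held on leaving out any 1 library, with let-7a-5p between 4.2 (without E518K clone 8) and 5.96 (without E518K clone 15), let-7d-5p between 2.87 (without KO sample 2) and 5.02 (without E518K clone 15), let-7g-5p between 2.65 (without KO sample 2) and 4.21 (without E518K clone 15), and let-7f-5p between 2.58 (without KO sample 2) and 4.09 (without E518K clone 15).

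let-7i-5p rose by 1.74 ± 0.39 (edgeR adjusted p = 3.1e-05), or by 1.12 without KO sample 3, and was not called with total counts (0.47). The calls of let-7d-3p (1.65 ± 0.59, edgeR adjusted p = 0.0085) and miR-98-5p (1.51 ± 0.55, edgeR adjusted p = 0.010) were lost without KO sample 2 (0.42 and 0.67), KO sample 3 (1.05 and 0.74), E518K clone 8 (0.73 and 0.93) or E518K clone 13 (1.21 and 1.06), and with DESeq2 (adjusted p = 0.10 and 0.12). let-7b-5p, let-7c-5p and let-7e-5p, with changes of -0.26, 0.68 and -0.26, were not called. All 3 were called higher on the DGCR8-independent list (2.22, 3.15 and 2.23) and under the authors' scaling (1.56, 2.47 and 1.53), while let-7b-5p and let-7e-5p were called lower with total counts (-1.44 and -1.47). let-7c-5p was also called higher without KO sample 1 (1.24) or E518K clone 15 (1.59).

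The spread between the induced wild-type clones was itself a feature of the family. Clone 12 was the highest of the 3 clones for 10 of 10 members (8 with total counts or the authors' scaling and 9 with DESeq2 size factors), whereas it was the highest for 37.7% of the 599 tested miRNAs with a count in every wild-type clone. Between the clones of a group, total counts and the authors' scaling are the same and count as 1 alternative. Clone 10 was the lowest for 9 members and clone 16 for let-7i-5p (clone 10 for all 10 with total counts, and clone 16 for let-7e-5p, let-7f-5p, let-7g-5p and let-7i-5p with DESeq2 size factors). The log2 of the highest over the lowest clone was 2.95 for miR-98-5p, 2.90 for let-7d-5p, 2.63 for let-7b-5p, 2.24 for let-7a-5p, 2.11 for let-7i-5p, 1.89 for let-7d-3p, 1.78 for let-7f-5p, 1.61 for let-7g-5p, 1.26 for let-7c-5p and 1.08 for let-7e-5p. The median of these ranges was 2.00, against 0.70 over the 599 miRNAs, and without clone 12 it was 0.63.

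Clones 10 and 16, by contrast, were close for several members. The log2 ratio of clone 16 over clone 10 was 0.02 for let-7f-5p, 0.09 for let-7g-5p, 0.11 for let-7e-5p and -0.14 for let-7i-5p, and was highest for let-7b-5p at 2.47, from 44 counts in clone 16 and 3 in clone 10. Clone 16 was the highest for let-7b-5p with total counts, DESeq2 size factors or the authors' scaling, and for let-7c-5p with total counts or the authors' scaling. Stem cell markers summed to 86540, 114042 and 86677 scaled CPM in clones 10, 12 and 16, neural markers to 3765, 4000 and 4956 scaled CPM and mesenchymal markers to 5130, 4095 and 3485 scaled CPM. With TMM scaling clone 12 was thus the highest for the stem cell markers and in the middle for the other lists. As a percent of counts it was in the middle for the stem cell markers (5.20%, 6.13% and 7.88% in clones 10, 12 and 16). By that measure clone 12 was the lowest for the neural (0.226%, 0.215% and 0.451%) and mesenchymal markers (0.308%, 0.220% and 0.317%). Their part in the let-7 spread was not tested.

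In the other groups the members spread about as much as other miRNAs. They had a median range of 0.82 between the 3 E518K clones, where all tested miRNAs with no 0 had 0.92, and of 0.92 between the KO libraries, where all tested miRNAs with no 0 had 1.03. Ranges above 2 in KO were those of let-7b-5p and the let-7d arms, which rest on 2 to 20 counts per library. let-7g-5p was within 0.15 log2 units in the 3 E518K clones, against 1.61 in the 3 wild-type clones (0.65 against 1.45 with total counts). Members whose hairpins lack GGAG between the arms had ranges between the wild-type clones of 2.63 (let-7b-5p) and 2.95 (miR-98-5p), and those with it ranged up to 2.90 (let-7d-5p).

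**Figure D4:**
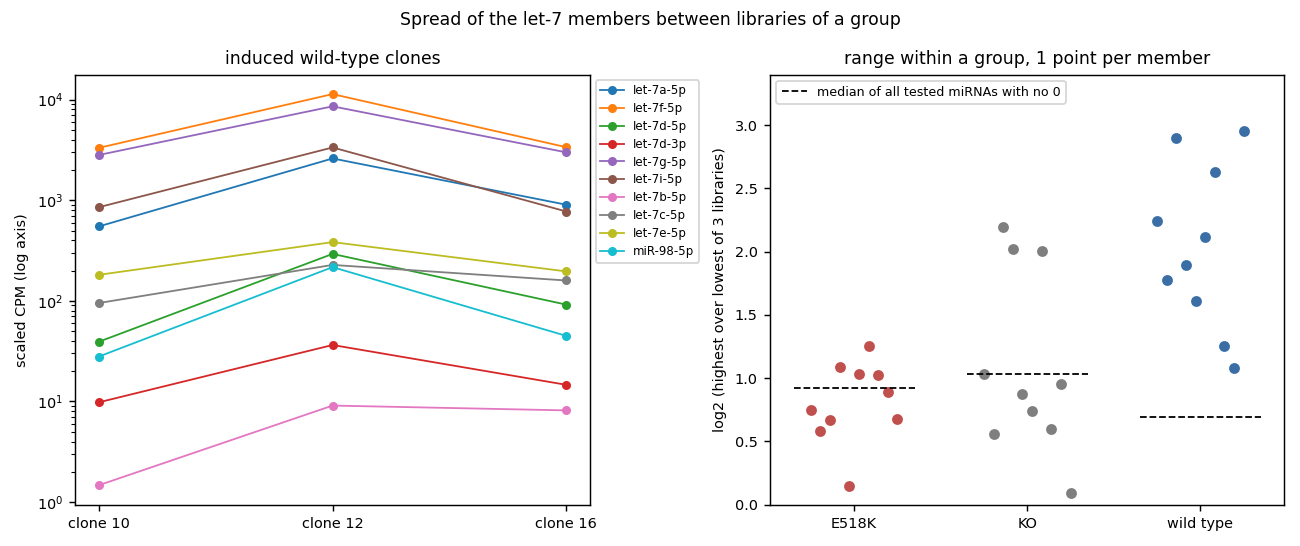
Left, scaled CPM (log axis) of the 10 members in induced wild-type clones 10, 12 and 16; right, log2 of the highest over the lowest library of each member (1 point per member) in E518K, KO and wild type, with dashed lines at the median of all tested miRNAs with no 0. Every line on the left peaks at clone 12 under TMM scaling (let-7b-5p peaks at clone 16 with total counts, DESeq2 size factors or the authors' scaling, let-7c-5p with total counts or the authors' scaling), and all wild-type points on the right lie above their dashed line at 0.70 (with total counts let-7e-5p, at 0.92, lies below a median of 1.05, and with DESeq2 size factors let-7c-5p lies just below it, 0.771 against 0.775).

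The let-7d hairpin gives 2 rows, so its arms can be set against each other within a library. The 5p arm had 7.54, 13.4 and 6.75 counts per count of the 3p arm in E518K clones 8, 13 and 15, against 4, 8.04 and 6.27 in wild-type clones 10, 12 and 16. The ranges overlapped, and the log2 difference of 0.59 did not pass a two-sided exact permutation test (p = 0.3, n = 3 each, where 0.1 is the smallest p possible). In KO the ratio was 1, 2 and 2.25, on 2 to 18 counts per arm.

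The other arms of the family, which are usually degraded after the guide strand is chosen, were near the floor. Of 13 listed rows (the 3p arms, let-7j and let-7k), 3 were tested, and all 3 were called higher in induced E518K than in induced wild type. Of all tested miRNAs 28.2% were called higher and 35.3% lower. These calls are from TMM scaling alone, where the median change of all tested miRNAs was -0.14, against -2.90 on the DGCR8-independent list. let-7a-1-3p had 85, 37 and 62 counts in E518K clones 8, 13 and 15, 0 counts in each KO library and 10, 29 and 42 counts in wild-type clones 10, 12 and 16, which gave a log2 change of 2.75 ± 0.53 for E518K over wild type (edgeR adjusted p = 1.0e-06). let-7f-2-3p had a change of 3.10 ± 0.73 (edgeR adjusted p = 7.5e-05). let-7c-2-3p, with 2.78 ± 0.53 (edgeR adjusted p = 1.0e-06), has the same letters as let-7a-1-3p and nearly the same counts, so the reads of that pair cannot be told apart.
let-7a-1-3p: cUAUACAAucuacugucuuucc
let-7c-2-3p: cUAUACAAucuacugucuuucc
let-7f-2-3p: cUAUACAGucuacugucuuuc

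In KO, 12 of the 13 rows were at 0 in all 3 libraries and let-7j had 2 counts in KO sample 3. A count of 0 allows up to 6 counts per library here, since counts were mostly even, as if each small RNA had been entered 2 times. let-7e-3p and let-7g-3p were not tested, and the wild-type libraries were deeper than those of E518K. let-7e-3p had 6, 0 and 0 counts in the E518K clones, against 12, 20 and 32 in the wild-type clones (1.31 ± 2.27 against 5.96 ± 0.096 scaled CPM, SD). let-7g-3p had 0, 2 and 0 counts in the E518K clones, against 2, 4 and 6 in the wild-type clones (0.554 ± 0.960 against 1.10 ± 0.117 scaled CPM, SD). All let-7g-3p counts lay within the 6 counts that a 0 allows, so no difference can be read from them. Outside the family, the seed GAGGUAG was also found in miR-1961, at 0 in all 11 libraries, and in let-7k, with 12 counts in wild-type clone 16 and 0 elsewhere, whereas let-7j lacks it.

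Several let-7 hairpins sit in clusters with members of the miR-99/100 and miR-125 families, which have other seeds. Of 11 such partners 8 were tested, and 3 were called higher and 2 lower in induced E518K against induced wild type, where 28.2% of all tested miRNAs were called higher and 35.3% lower. Their median log2 change was -0.39, against -0.14 over all tested miRNAs. Values of the partners are given with TMM scaling alone, and on the DGCR8-independent list the median of all tested miRNAs was -2.90. The partners of let-7e (Mirlet7e) were the most abundant of the list and lay below 0, as let-7e-5p did: miR-99b-5p averaged 614 ± 184 scaled CPM in induced E518K and 3388 ± 696 in induced wild type (SD, n = 3 each) and fell by 2.46 ± 0.39 (edgeR adjusted p = 3.4e-09), miR-99b-3p fell by 2.41 ± 0.44 (edgeR adjusted p = 2.7e-07), and miR-125a-5p, with -0.75 ± 0.41, was not called (edgeR adjusted p = 0.099). Among the partners of let-7c-1 and let-7a-2, miR-125b-1-3p rose by 2.69 ± 0.51 (edgeR adjusted p = 6.0e-07). There too, miR-125b-5p rose by 1.32 ± 0.39 (edgeR adjusted p = 0.0017) and miR-99a-5p by 1.54 ± 0.47 (edgeR adjusted p = 0.0023), while miR-100-5p, at -0.47 ± 0.39, was not called (edgeR adjusted p = 0.29).

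In KO against induced wild type, 4 partners were called higher and 2 lower, where 30% of all tested miRNAs were called higher and 58.4% lower. Their median log2 change was 0.47, against -3.54 over all tested miRNAs. Values of the partners are again given with TMM scaling alone. The median of all tested miRNAs was lower under the authors' scaling (-5.19) and on the DGCR8-independent list (-8.23), so the rises below depend on the scaling. miR-99b-5p, at -0.63 ± 0.37, was not called (edgeR adjusted p = 0.10), while miR-99b-3p fell by 3.05 ± 0.49 (edgeR adjusted p = 1.3e-09) and miR-125a-5p by 1.22 ± 0.43 (edgeR adjusted p = 0.0063). miR-99a-5p averaged 412 ± 63.7 scaled CPM in KO and 7.99 ± 2.5 in induced wild type (SD, n = 3 each), and rose by 5.64 ± 0.51 (edgeR adjusted p = 6.0e-26). miR-100-5p averaged 1720 ± 375 scaled CPM in KO and 95.6 ± 28.3 in induced wild type, and rose by 4.17 ± 0.43 (edgeR adjusted p = 2.2e-20). miR-125b-5p rose by 2.13 ± 0.40 (edgeR adjusted p = 2.7e-07) and miR-125b-1-3p by 1.56 ± 0.55 (edgeR adjusted p = 0.0057). In counts, miR-100-5p had 671, 714 and 520 in the KO libraries, against 213, 390 and 345 in the wild-type clones, although the KO libraries were far shallower.

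The libraries without doxycycline, made to look at leaky expression, were set against KO. All KO libraries had doxycycline, so leaky expression and the lack of doxycycline cannot be told apart in these comparisons. Untreated wild-type clone 10 had 1595 scaled CPM of let-7a-5p and 6083 scaled CPM of let-7g-5p, above the 337 to 689 and 571 to 1049 scaled CPM of the KO libraries. The log2 changes were 1.56 ± 0.51 for let-7a-5p (edgeR adjusted p = 0.0050) and 2.87 ± 0.49 for let-7g-5p (edgeR adjusted p = 2.5e-08), the lone library being assumed to vary like the other groups, and these were the 2 members called, both higher (0 higher and 8 lower with total counts, 7 higher and 0 lower on the DGCR8-independent list), where 56.7% of tested miRNAs were called, 43.3% higher and 13.4% lower. let-7a-5p turned to -0.50 with total counts, was not called with DESeq2 (0.86) and was not called without KO sample 2 (0.40) or KO sample 3 (0.60), and let-7g-5p was 1.66 and 1.88 without them and 0.80, not called, with total counts.

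Untreated E518K clone 8 had 2961 scaled CPM of let-7a-5p, which was higher than KO by 2.46 ± 0.50 (edgeR adjusted p = 1.7e-05), or by 1.78 without KO sample 2. let-7f-5p, with 11979 scaled CPM in untreated E518K against 3378 to 4975 in KO, was higher by 1.46 ± 0.52 (edgeR adjusted p = 0.037), a call lost without KO sample 2 (0.73) or KO sample 3 (0.82), with total counts (0.68), with DESeq2 (0.79) and on the DGCR8-independent list (0.62). The other 8 members were not called, where 15.3% of tested miRNAs were called, 15.2% higher and 0.137% lower.

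Doxycycline and its absence can be compared in the same clone with 1 library each, without a replicate check. In E518K clone 8, let-7a-5p had 22771 scaled CPM with doxycycline and 2961 without it, let-7f-5p had 50704 and 11979, let-7g-5p had 9114 and 1684, and let-7d-5p had 572 and 38.1. The induced library was higher for 8 members and lower for let-7b-5p and let-7e-5p, which were higher under the authors' scaling and on the DGCR8-independent list, while let-7c-5p (0.42) was slightly lower with total counts (-0.07).

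In wild-type clone 10, let-7a-5p had 549 scaled CPM with doxycycline and 1595 without it, let-7f-5p had 3315 and 7426, and let-7g-5p had 2817 and 6083. Here the induced library was lower for 7 members and higher for let-7d-5p, let-7e-5p and miR-98-5p, by 0.29, 0.94 and 0.45 on the log2 scale. Scaled on the DGCR8-independent list all 10 were higher with doxycycline, and let-7d-3p was higher under all 4 other scalings. Over the miRNAs with counts in both libraries of the clone the median log2 ratio was 0.01 in wild-type clone 10 and -0.37 in E518K clone 8, against -1.05 and 1.53 over the members. let-7e-5p was the member with the greatest log2 ratio in wild-type clone 10, 181 scaled CPM with and 94.8 without doxycycline, and had 157 with and 216 without it in E518K clone 8. The difference between these ratios, that of E518K clone 8 minus that of wild-type clone 10, has no replicates on either side. In an edgeR fit with these 4 libraries as groups of their own, added after seeing the data and assuming that each varies like the other libraries, it was called for 4 members, all higher (1 member with total counts or DESeq2 size factors), where 15.3% of tested miRNAs were called, 13.6% higher and 1.78% lower.

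**Figure D5:**
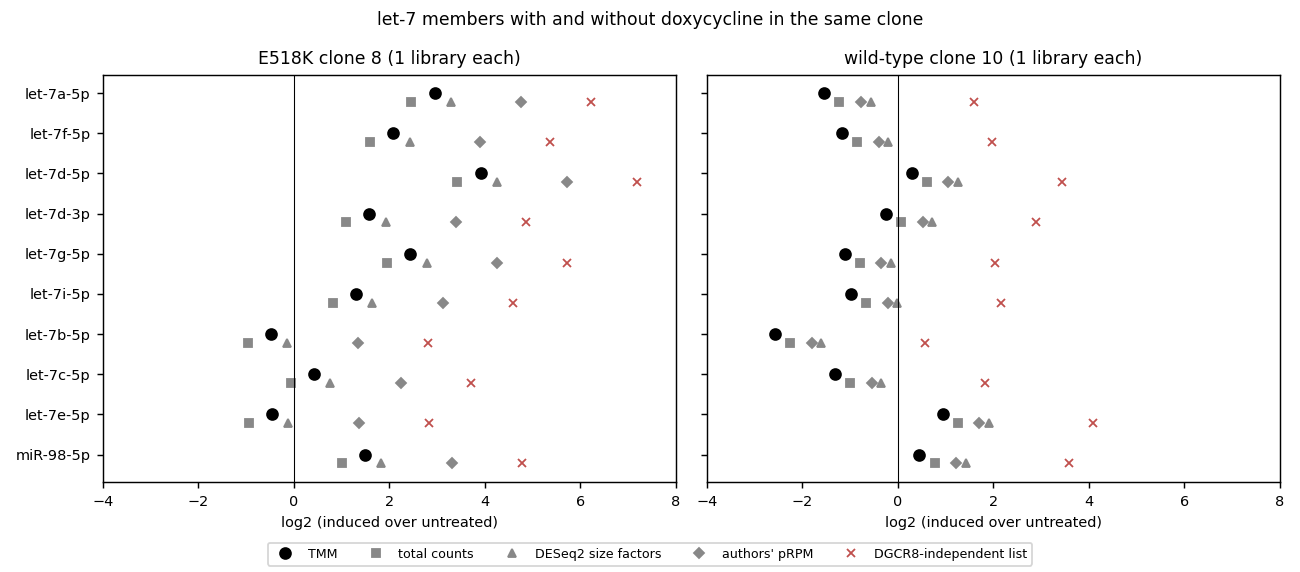
Log2 ratio of scaled CPM with over without doxycycline for each member in E518K clone 8 (left) and wild-type clone 10 (right), 1 library each, with TMM in black and 4 other scalings below. Under TMM 8 members lie right of 0 in E518K clone 8 and 3 in wild-type clone 10, and all 10 lie right of 0 in both clones on the DGCR8-independent list (red crosses).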

How the data were processed

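Small RNA was measured in 11 libraries of mouse embryonic stem cells, extracted with peqGold TriFast and made with a NEBNext small RNA kit, per the labels' protocols. The authors deposited counts of 1966 mature miRNAs, not normalized per the file headers, and the same miRNAs in a scaled RPM that the file header calls pRPM. STAR, bedtools and GRCm38.p6 are named in the submitters' processing notes. The sources used here do not state the counting rule. Of the deposited counts from 1 to 40, 90.3% were even, as if each small RNA had mostly been entered 2 times; of the members' 110 counts 75 were even (68.2%). Counting intervals were therefore computed on counts and totals divided by 2, and they do not cover the spread between samples. All pRPM values gave whole reads within 0.01 (100%), each library being multiplied by a constant, and the count test under that scaling is one of the alternatives. The pRPM of a library summed to 85006 in every KO library, 683476 in every induced E518K library and 938495 in every induced wild-type library. Within a group the authors' scaling is therefore the same as total counts. A deposited file labelled as piRNA was identical to the pRPM file and was not used.

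Groups and clone numbers came from sample titles. Tests used edgeR 4.0.16 in R 4.3.3 (robust quasi-likelihood fit over 11 libraries in 5 groups, TMM, filterByExpr at min.count 10 and min.total.count 15, Benjamini-Hochberg over 730 miRNAs, threshold 0.05). They were also run on simulated counts with as many rises as falls. That does not cover KO against induced wild type, where 30% were called higher and 58.4% lower. Single untreated libraries share the spread of the other groups. P-values measure the spread between these samples, which for the 3 KO samples may be technical. Alternatives were total counts, DESeq2 1.42.0 size factors and test, scaling on 12 DGCR8-independent miRNAs, the authors' scaling, no filter, miRNAs with the same reads merged, fits of 2 groups alone, and leaving out each library. No member was among the miRNAs whose counts were the same within 2% (total of at least 100).

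All 10 members are described. The partners and the other arms are given by counts of members called, the partners with medians too. Marker lists and the DGCR8-independent list are given by their share of counts or summed level. The most abundant DGCR8-independent miRNAs by wild-type mean were miR-1839-5p, miR-1983 and miR-484. Further members of the partner lists and of the other arms were named after their values were seen. The 5 miRNAs most like the summed 5p members had the smallest root mean square difference of centred log2(scaled CPM + 1) profiles, with a mean of at least 100 scaled CPM. Members and lists were chosen with earlier results of these data known.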

Additional observations from a re-analysis of the deposited data

Results flagged for a closer look

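For 4 members the change with doxycycline in E518K clone 8 was called apart from that in wild-type clone 10, in an edgeR comparison added after seeing the data. Each of its 4 libraries (each clone with and without doxycycline) stood alone and was assumed to vary like the other libraries, so the p-values carry no replicate check of their own. The log2 ratio with over without doxycycline in E518K clone 8 minus that in wild-type clone 10 was 4.48 for let-7a-5p (adjusted p = 0.0011), 3.55 for let-7g-5p (adjusted p = 0.0077), 3.24 for let-7f-5p (adjusted p = 0.029) and 3.62 for let-7d-5p (adjusted p = 0.031). Across the 730 tested miRNAs 15.3% were called, 13.6% higher and 1.78% lower, and the median of this difference was 2.15 over the 10 members and 1.16 over all tested miRNAs. With total counts or DESeq2 size factors 1 member, let-7a-5p, was called. The comparison rests on 1 clone of each line, so clone and DGCR8 form cannot be told apart.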

How the results depend on the processing

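No paired analysis was possible because the groups compared share fewer than 2 replicate numbers. Log2 changes that turned sign are given first. In E518K over wild type, scaling on the DGCR8-independent list gave -0.59 for let-7b-5p, -0.64 for let-7c-5p, -1.07 for let-7d-5p, -1.35 for let-7d-3p, -1.94 for let-7g-5p and -0.25 for let-7i-5p, and miR-98-5p was 0.070 with total counts and -0.80 to 0.80 on leaving out 1 library. In KO over wild type, the list gave -2.81 for let-7b-5p, -3.78 for let-7c-5p and -4.49 for let-7i-5p, and the authors' scaling -0.40 for let-7c-5p and -0.93 for let-7i-5p. Total counts gave 0.36 for let-7a-5p, 1.47 for let-7d-3p, 0.77 for let-7e-5p and 1.26 for let-7f-5p. On leaving out 1 library the ranges were -1.71 to 0.026 (let-7a-5p), -1.06 to 1.07 (let-7d-3p), -1.28 to 0.075 (let-7e-5p) and -0.94 to 0.94 (let-7f-5p), each highest without wild-type clone 12 and lowest without KO sample 1. let-7d-3p was 0.035 with DESeq2 and 0.48 with same reads merged, and let-7f-5p was 0.21 with same reads merged. In E518K over KO, let-7b-5p was 2.22 on the list, 1.56 under the authors' scaling and -1.20 to 0.80 on leaving out 1 library, let-7e-5p was 2.23, 1.53 and -1.09 to 0.61 under these, and let-7c-5p was -0.53 with total counts and -0.24 to 1.59 on leaving out 1 library. For untreated wild type over KO, let-7a-5p was -0.50 with total counts.

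Counts of members called in E518K over wild type were 1 higher and 5 lower on the list, 0 lower with total counts or same reads merged, and 6 to 8 higher and 0 to 1 lower on leaving out 1 library. In KO over wild type they were 0 higher and 10 lower on the list, 0 higher and 8 lower under the authors' scaling, 5 higher and 1 lower with total counts, 3 lower with same reads merged, and 2 to 3 higher and 1 to 6 lower on leaving out 1 library. E518K over KO gave 4 higher and 2 lower with total counts, and 5 to 8 higher and 0 lower on leaving out 1 library. Untreated wild type over KO gave 1 higher with DESeq2 size factors, DESeq2 or same reads merged (2, 3 and 3 lower), 0 higher and 8 lower with total counts, 7 higher on the list, and 1 to 2 higher and 1 to 4 lower without 1 KO sample. Untreated E518K over KO gave 1 higher with DESeq2 size factors, DESeq2, the list, same reads merged or total counts, and 1 to 4 without 1 KO sample. The difference in induction gave 1 higher with total counts or DESeq2 size factors. The median range between wild-type clones was 0.63 to 1.93 on leaving out 1 clone. The causes were not tested. On leaving out 1 library the family's share ranged from 6.62% to 7.70% in E518K, 1.79% to 2.06% in KO and 0.626% (without clone 12) to 1.12% in wild type. The share of let-7b-5p among the 5p members in wild type was 0.0493%, and 0.0262% without clone 16. Of 476 alternative log2 changes of members, 41 changed sign, some of which also lost or gained a call. Among those that kept their sign 74 lost and 12 gained a call, and of 241 alternative counts, shares and other values 46 moved. Depth limits KO most, where let-7b-5p, let-7d and miR-98-5p rest on 2 to 20 counts per library.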

Other observations

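Among miRNAs with a mean of at least 10 scaled CPM and a count in each of the 3 induced wild-type clones (438 miRNAs, 9 of them let-7 members), 6 were at least 2.5 times as high in clone 12 as in both other clones, with TMM scaling, and all 6 were let-7 members: miR-98-5p, let-7i-5p, let-7f-5p, let-7d-5p, let-7a-5p and let-7g-5p. The fold of clone 12 over the next clone was 4.83 for miR-98-5p, 3.93 for let-7i-5p and 3.37 for let-7f-5p. let-7d-3p came next with 2.49, and the highest outside the family were miR-3086-5p with 2.37 and miR-1a-3p with 2.27. No miRNA passed the same fold in clone 10 (0) or clone 16 (0). These folds are from TMM scaling. With total counts or the authors' scaling 2 miRNAs passed in clone 12 (miR-98-5p and let-7i-5p) and 6 in clone 16, none of them members (0). With DESeq2 size factors 4 passed in clone 12, all members, and 3 in clone 10, none of them members (0), and on the DGCR8-independent list 7 passed in clone 12, all members. The fold and the level were chosen after the values were seen, and no test was run.

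Of 204 tested miRNAs outside the family with a mean of at least 100 scaled CPM, the 5 whose levels over the 11 libraries were most like the summed let-7 5p members were miR-221-3p (root mean square difference 0.75 log2 units), miR-222-3p (0.80), miR-127-5p (0.92), miR-29a-3p (0.95) and miR-16-1-3p (1.16), where the median of all candidates was 2.91. miR-221-3p averaged 580 ± 122 scaled CPM in induced E518K, 32 ± 9.37 in KO and 127 ± 35.9 in induced wild type (SD, n = 3 each). miR-29a-3p averaged 766 ± 139 scaled CPM in induced E518K, 183 ± 68.6 in KO and 75.9 ± 19.6 in induced wild type. The KO libraries share a clone, and each untreated library shares its clone with an induced one, so these 11 points are not independent.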
